A study of Mus musculus with 8 samples.

Results

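The genes of the unfolded protein response and the integrated stress response were followed in hepatic macrophages exposed to cholesterol crystals (CC). A total of 36 genes were chosen by symbol from the 55401 rows of the count table, in 3 lists: 17 genes of the ATF4 arm, 4 genes for the sensors of endoplasmic reticulum (ER) stress and Xbp1, and 15 genes for protein folding and degradation in the ER. All 36 passed the filter on low counts, which 15202 genes passed. The symbol Ddit3 stands on 2 of the 37 rows found, and its second row, inside the first, held 1 count in every library and was not tested. The macrophages were taken with antibodies to F4/80 and magnetic columns from normal livers of wild-type C57BL/6J mice on a standard diet, or from steatotic livers of MC4R-KO mice, which lack the melanocortin-4 receptor, on the same background after 6 to 10 wk of Western diet. They were cultured on collagen-coated plates and received vehicle (Veh) or CC at 500 µg/ml for 24 h. Poly(A) RNA was sequenced in 8 libraries, 2 for each combination of liver and treatment. Genotype and diet differed together between the livers and cannot be told apart, and the labels give neither the age of the mice nor whether the libraries of a group came from separate animals, so the spread between them may be technical.

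When unfolded proteins gather in the ER, the kinase PERK (gene Eif2ak3) phosphorylates the translation factor eIF2, which slows protein synthesis but lets the transcription factor ATF4 be translated. Other kinases do the same in the absence of ER stress, for example when amino acids are short or haem is lacking, and this shared route is called the integrated stress response. The remaining sensors, IRE1 (Ern1) and ATF6, act on the ER itself: IRE1 splices the mRNA of XBP1, and XBP1 and ATF6 raise chaperones and the machinery that removes misfolded proteins. In macrophages, loading of the cell with free cholesterol is a known trigger of CHOP (Ddit3), a late factor of this response.

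The libraries held 58668655 to 74529462 counts each, and levels are given as CPM, each count scaled to its library total. Mc4r itself had 0 counts in every library labelled normal and 22 to 72 in those labelled steatotic. About 4 counts may stand for 1 read pair. Reads in the knockout libraries alone would be unexpected if the whole gene were removed. The labels do not give what part of the gene the allele alters, so these counts do not decide whether the labels are right. The groups are therefore called normal-labelled and steatotic-labelled, and all directions between livers rest on the labels. Macrophage markers were high in every library, with a summed level of 17620 to 25860 CPM over 10 genes, and the Kupffer cell markers Clec4f and Timd4 were detected in all 8. Hepatocyte markers summed to 2.37 to 62.4 CPM, T and NK cell markers to 0.801 to 18.2 CPM and B cell markers to 1.21 to 3.02 CPM.

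The promoters of the 2 larger lists carried different motifs. RefSeq windows from 250 bases before to 50 after the start of transcription (GRCm38.p6) were found for 32 of the 36 members, all but Slc7a5, Hyou1, Manf and Atf6. Genes with more than 1 window, Atf5 and Psat1 among the ATF4 arm, count once, with a match in any window. The C/EBP-ATF response element was searched on both strands as TGATGNAA, a form bound by ATF4. It was found in 4 of 16 ATF4 arm genes and 1 of 13 ER folding genes, beside 4.51% of all 27025 genes with a window. The ER stress response element, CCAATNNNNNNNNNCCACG on both strands, is the form known for ATF6 and XBP1. It was found in 7 of 13 ER folding genes, in 0 of 16 ATF4 arm genes and in 0.137% of all genes with a window. Matches of both lists are printed 5′ to 3′ on the gene's strand, to set the ATF4 motif beside the ER element, with the motif in capitals and with GRCm38.p6 positions. A match describes letters and not a bound site. The lists hold genes known as targets of these factors, so the shares describe the lists and test nothing.
Asns (ATF4 arm, chr6:7693215-7693242, minus strand): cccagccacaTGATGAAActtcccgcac
Trib3 (ATF4 arm, chr2:152344029-152344056, minus strand): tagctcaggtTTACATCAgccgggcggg
Atf3 (ATF4 arm, chr1:191183416-191183463, minus strand): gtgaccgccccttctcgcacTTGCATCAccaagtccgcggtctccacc
Chac1 (ATF4 arm, chr2:119351029-119351076, plus strand): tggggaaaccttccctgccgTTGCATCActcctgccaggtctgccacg
Hspa5 (ER folding, chr2:34772020-34772048, plus strand): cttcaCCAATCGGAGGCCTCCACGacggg
Calr (ER folding, chr8:84847055-84847113, minus strand): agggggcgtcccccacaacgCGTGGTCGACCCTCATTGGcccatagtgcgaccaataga
Canx (ER folding, chr11:50325780-50325838, minus strand): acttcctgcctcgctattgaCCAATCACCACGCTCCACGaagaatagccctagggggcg
Pdia6 (ER folding, chr12:17266471-17266529, plus strand): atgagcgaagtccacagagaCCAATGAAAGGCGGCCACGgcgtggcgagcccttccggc
Creld2 (ER folding, chr15:88819500-88819558, plus strand): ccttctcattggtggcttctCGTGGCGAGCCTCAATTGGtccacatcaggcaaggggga
Herpud1 (ER folding, chr8:94386297-94386407, plus strand): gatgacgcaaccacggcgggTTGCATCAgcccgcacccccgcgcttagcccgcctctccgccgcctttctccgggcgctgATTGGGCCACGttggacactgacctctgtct

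Trib3, Atf3 and Chac1 carried the ATF4 motif on the reverse strand. The window of Herpud1, which encodes an ER membrane protein for the removal of misfolded proteins, held an ATF4 motif and the second form of the ER element (ERSE-II), found in 0.0444% of all genes with a window. Hsp90b1, with 2 matches, and Dnajc3 complete the 7 with the ER element. The cyclic AMP element TGACGTCA, which ATF3 and related factors bind, stood in the window of 1 ATF4 arm gene, Ppp1r15a, and of 2.03% of all genes.

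With CC, the members that rose lay mainly in the ATF4 arm and few in the ER folding list. In normal-labelled macrophages, 8 of 17 ATF4 arm genes rose and 0 fell, with a median log2 fold change of 0.52. In the same comparison, 1 of 15 ER folding genes rose and 2 fell, with a median of -0.027. Among all genes tested, 6.27% rose and 5.54% fell, and the median was -0.00060. In steatotic-labelled macrophages, 9 of 17 ATF4 arm genes rose and 3 fell, with a median of 0.47. Of the ER folding genes, 3 of 15 rose and 3 fell, with a median of 0.0012, beside 12% and 10.9% of all genes. These calls are from edgeR's quasi-likelihood test at an adjusted p under 0.05 (Benjamini-Hochberg over all genes tested, 2 libraries per group, all 8 in one model), and fold changes are taken after scaling by the trimmed mean of M values. With each of the 4 normal-labelled libraries left out, 5 ATF4 arm genes rose there, or 4 without the second Veh library, and Asns, Atf3, Ddit3 and Trib3 were among them each time. In these fits fewer of all genes tested were called too, so the shares of the full fit do not apply to them. In steatotic-labelled macrophages 8 to 10 rose with any library left out, 7 of the 9 each time, while the falls of ATF4 arm genes went from 3 to 0 without the second Veh or the first CC library and to 1 without the first Veh or the second CC library. The ER folding genes that rose there went from 3 to 1 without the second Veh or the first CC library, and those that fell in normal-labelled macrophages went from 2 to 0 without the first Veh or the first CC library and to 1 without the second CC or any steatotic-labelled library.

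**Figure D1:**
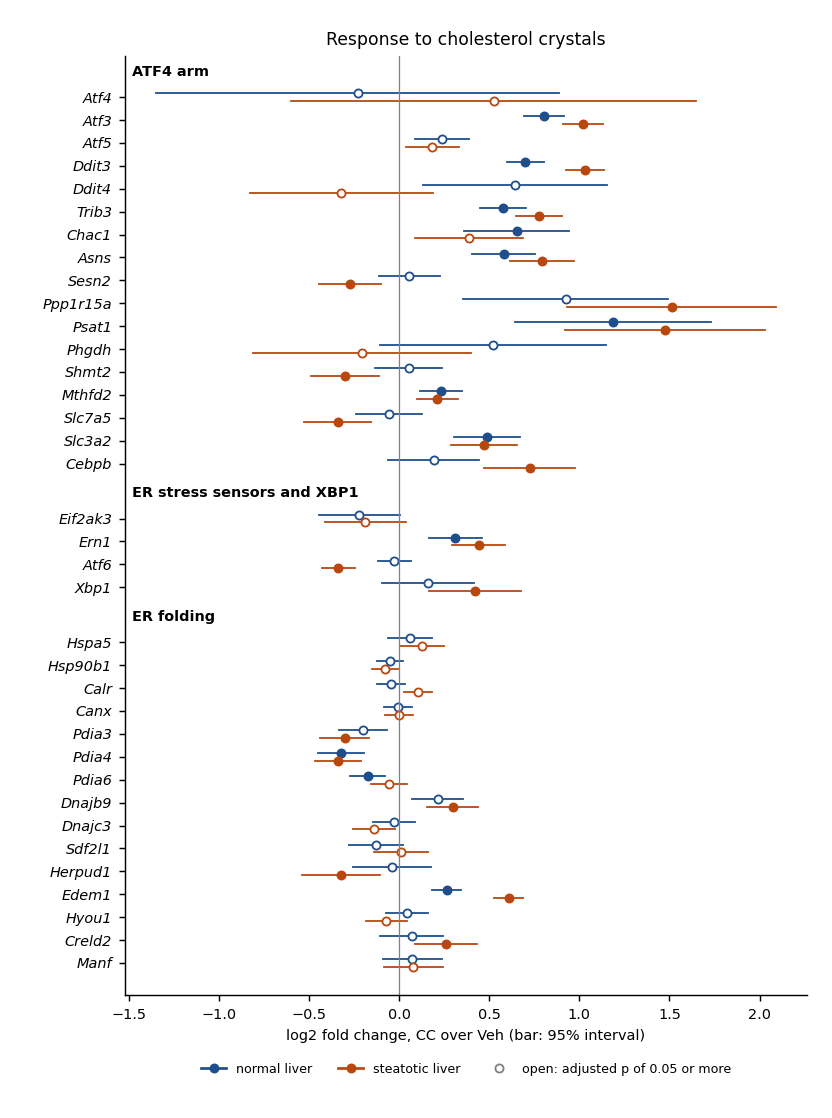
Log2 fold change of each of the 36 genes with CC over Veh in normal-labelled (blue) and steatotic-labelled (orange) macrophages (2 libraries per group), with the 95% confidence interval as a bar and filled points for an adjusted p under 0.05. Points of the ATF4 arm spread to the right, up to 1.51 for Ppp1r15a in steatotic-labelled macrophages, whereas ER folding genes lie between -0.34 for Pdia4 and 0.61 for Edem1.

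Of all genes tested, 6.27% rose and 5.54% fell with CC in normal-labelled macrophages, and 12% and 10.9% in steatotic-labelled ones. Beside these shares, macrophage markers moved with the treatment. With CC, 9 of 10 fell in normal-labelled and 8 of 10 fell and 1 rose in steatotic-labelled macrophages, with log2 fold changes of -0.36 and -0.66 for Adgre1 (F4/80) and -0.46 and -0.50 for Csf1r. Their summed level was 24990 CPM with Veh and 18820 CPM with CC in normal-labelled, and 25470 and 18350 CPM in steatotic-labelled macrophages (means, n = 2). Of 5 Kupffer cell markers, 3 fell in normal-labelled and 4 fell and 1 rose in steatotic-labelled macrophages, and their sums were 2764 against 2255 CPM and 3932 against 2800 CPM. In bulk RNA, fewer cells of a type and less RNA per cell cannot be told apart. Hepatocyte markers summed to 61.3 and 57.0 CPM in the normal-labelled groups and to 2.51 and 2.62 CPM in the steatotic-labelled groups, and 0 of 8 tested passed the test with CC in either liver. Of 7 tested sinusoidal endothelial markers, 2 rose in normal-labelled, and 4 rose and 1 fell in steatotic-labelled macrophages, with sums of 149 against 180.3 CPM and 249.7 against 235 CPM. Of 8 stellate cell and fibroblast markers Dcn alone was tested, and each of the others stayed under 0.5 CPM. Dcn rose from 2.14 and 2.07 to 7.002 and 5.69 CPM and from 20.8 and 17.4 to 135 and 108 CPM. Of 4 tested plasma cell markers, 1 rose and 0 fell in each liver, with sums of 188.4 against 362.2 CPM and 185 against 715.1 CPM. Of 2 tested neutrophil markers, 1 rose and 1 fell in each liver. The part of these markers in the results on stress genes was not tested.

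The gene of the arm's central factor, Atf4 (chr15:80255184-80257541 in GRCm38, plus strand), had 1 library that stood apart. Its level with Veh was 603 and 247 CPM in the normal-labelled libraries and 223 and 209.9 CPM in the steatotic-labelled ones. With CC it was 348 and 358 CPM in the former and 316 and 300.3 CPM in the latter. The first normal-labelled Veh library lay 2.44-fold above the second, a gap of more than 2-fold that 1.16% of genes over 10 CPM showed between those libraries, and the remaining 7 libraries ran from 209.9 to 358 CPM. No comparison passed the test for Atf4: the log2 fold change with CC was -0.23 ± 0.42 (SE, adjusted p = 0.806) in normal-labelled and 0.53 ± 0.42 (SE, adjusted p = 0.474) in steatotic-labelled macrophages. Without the first normal-labelled Veh library, Atf4 rose with CC in both, by 0.56 (adjusted p = 0.00369) and 0.53 (adjusted p = 0.000486). Without the second, the change in normal-labelled macrophages was -0.73 (adjusted p = 0.00108), so that 1 library sets the direction of Atf4 there. In the steatotic-labelled libraries, which do not include it, both CC values lay above both Veh values. Between livers, the log2 difference of Atf4 was -0.93 ± 0.43 (SE, adjusted p = 0.184) with Veh and -0.17 ± 0.42 (SE, adjusted p = 0.812) with CC, and that with Veh was -0.15 (adjusted p = 0.121) without the first and -1.44 (adjusted p = 2.66e-05) without the second normal-labelled Veh library. With CC the difference was -0.18 without the one or the other of these libraries (adjusted p = 0.0317 and 0.0308) and in the 4 CC libraries alone (adjusted p = 0.0336), where the groups did not overlap. The steatotic-labelled response gave 0.53 in its own 4 libraries (adjusted p = 0.00141). ATF4 is controlled mainly at translation, which RNA levels do not show.

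Atf3 and Ddit3 rose in both livers with little spread between libraries. Atf3 encodes a factor that is induced by many stresses. It stood at 173 and 164 CPM with Veh and 293 and 278 CPM with CC in the normal-labelled libraries, and at 122 and 120.0 CPM with Veh and 248 and 237 CPM with CC in the steatotic-labelled ones. The groups did not overlap, and the log2 fold change with CC was 0.80 ± 0.048 (SE, adjusted p = 8.89e-05) and 1.02 ± 0.048 (SE, adjusted p = 8.06e-06). Ddit3 encodes CHOP, a factor of the late response that can promote cell death. Its level was 83.9 and 79.7 CPM with Veh and 131 and 128 CPM with CC in normal-labelled, and 89.1 and 86.5 CPM with Veh and 176 and 179 CPM with CC in steatotic-labelled libraries. Both CC groups lay above both Veh groups, with log2 fold changes of 0.70 ± 0.044 (SE, adjusted p = 0.000107) and 1.03 ± 0.044 (SE, adjusted p = 5.41e-06). All 4 calls held with any of the 8 libraries left out.

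Cebpb, a factor of the same family that is prominent in myeloid cells, went from 64.1 and 64.8 CPM with Veh to 99.98 and 110.4 CPM with CC in steatotic-labelled macrophages (log2 fold change 0.72 ± 0.11 SE, adjusted p = 0.00284). In normal-labelled macrophages it had 75.8 and 63.1 CPM with Veh and 83.1 and 71.7 CPM with CC, and these groups overlapped (log2 fold change 0.19 ± 0.11 SE, adjusted p = 0.322). The difference between the 2 responses, 0.53, did not pass the test (95% interval 0.18 to 0.89, adjusted p = 0.142), but passed it with DESeq2 (adjusted p = 0.0315). Atf5, a close relative of Atf4, was above Veh with CC in both livers without passing the test, close to the threshold, at 33.3 and 33.2 against 38.4 and 38.3 CPM (log2 fold change 0.24 ± 0.064 SE, adjusted p = 0.0518) and 42.0 and 43.4 against 45.7 and 50.2 CPM (log2 fold change 0.18 ± 0.063 SE, adjusted p = 0.0794). In normal-labelled macrophages it passed the test with 4 of the alternatives, among them the fits without the first or the second steatotic-labelled CC library (adjusted p = 0.0416 and 0.0439). In the annotation Atf5 overlaps Il4i1 and Nup62 on the opposite strand, Ddit3 overlaps Mars and Cebpb overlaps Tmem189, likewise on the opposite strand. The libraries were directional, but it is not given whether counting used the strand, so reads of such neighbours may be shared.

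**Figure D2:**
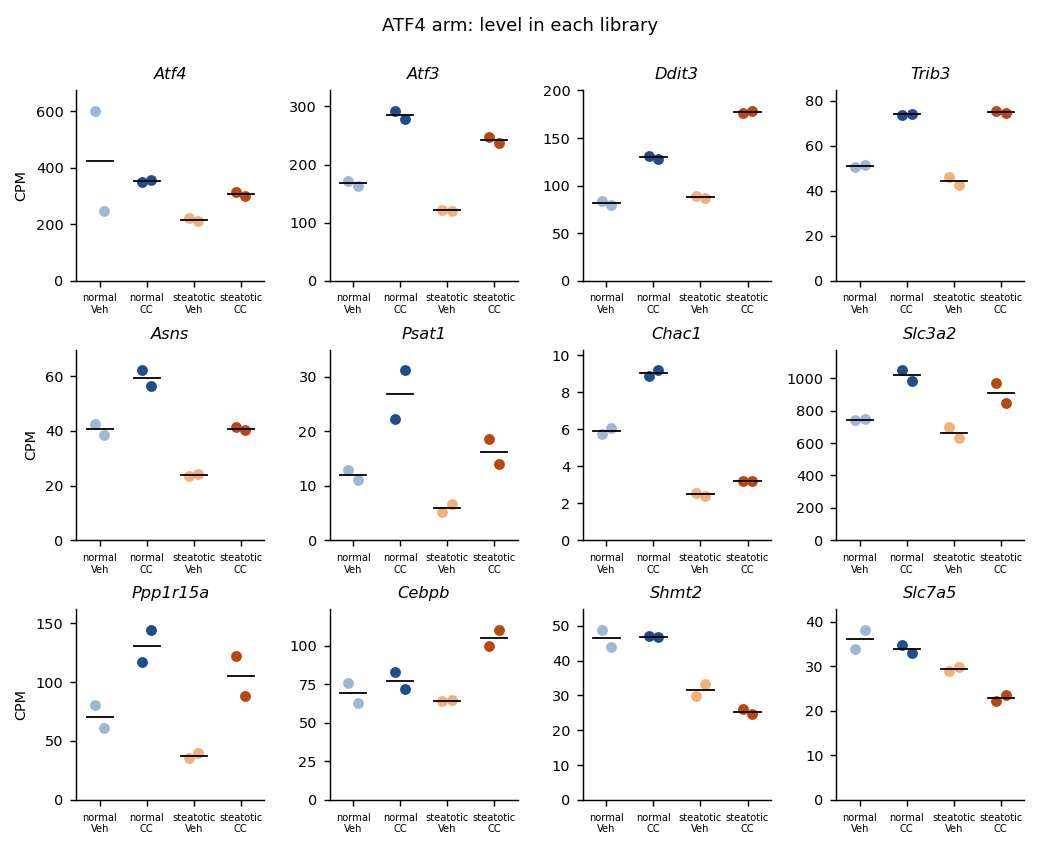
Level of 12 ATF4 arm genes in each library in CPM from 0, with a point per library and a line at the mean of the 2 libraries of a group. Atf3, Ddit3, Trib3 and Asns separate CC (dark) from Veh (pale) in both livers, 1 normal-labelled Veh library stands apart for Atf4, and Shmt2 and Slc7a5 are lowest in the steatotic-labelled CC group.

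The arm's regulators of signalling and survival were mixed. Trib3 encodes a pseudokinase that feeds back on ATF4 and CHOP. Its CPM was 50.5 and 51.4 with Veh and 73.7 and 74.2 with CC in normal-labelled macrophages, and 46.3 and 42.6 with Veh and 75.6 and 74.7 with CC in steatotic-labelled ones. It rose by 0.57 ± 0.055 (SE, adjusted p = 0.000605) and 0.78 ± 0.055 (SE, adjusted p = 5.49e-05), with groups far apart against their spread. Ppp1r15a encodes GADD34, the subunit that directs a phosphatase to eIF2 and so ends the response. It had the arm's largest log2 increase in steatotic-labelled macrophages, from 35.3 and 39.6 CPM to 122 and 88.5 CPM (log2 fold change 1.51 ± 0.23 SE, adjusted p = 0.00809). Its CC libraries differed by 1.38-fold, and the call was lost without the first steatotic-labelled Veh library (adjusted p = 0.0605). In normal-labelled macrophages the values were 80.6 and 60.8 against 117 and 144 CPM, not overlapping but with an adjusted p of 0.0639 at a log2 fold change of 0.92. It passed the test there with DESeq2 (adjusted p = 1.82e-06) and without the first or the second steatotic-labelled CC library (adjusted p = 0.0466 and 0.0485).

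Chac1, an enzyme that degrades glutathione, was a low gene, at 5.74 and 6.04 CPM with Veh and 8.86 and 9.19 CPM with CC in normal-labelled libraries. It rose there by 0.65 ± 0.13 (SE, adjusted p = 0.0147), and lost this call when any of these 4 libraries was left out (adjusted p up to 0.0865). In steatotic-labelled libraries Chac1 had 2.56 and 2.41 against 3.20 and 3.22 CPM (log2 fold change 0.39 ± 0.13 SE, adjusted p = 0.0705). Sesn2 and Ddit4, which restrain the growth kinase complex mTORC1, showed no increase past the test. Sesn2 fell in steatotic-labelled macrophages, from 65.5 and 62.9 to 51.6 and 53.5 CPM (log2 fold change -0.27 ± 0.073 SE, adjusted p = 0.0331), a call lost without any 1 of those 4 libraries (adjusted p up to 0.152) and under the replicate block (adjusted p = 0.0529), and in normal-labelled ones its groups overlapped at 64.9 and 61.3 CPM with Veh and 59.6 and 68.5 CPM with CC. Ddit4 was near 2 CPM in all groups, at 1.54 and 1.99 CPM with Veh and 2.80 and 2.57 CPM with CC in normal-labelled and 2.43 and 2.90 CPM with Veh and 2.29 and 1.93 CPM with CC in steatotic-labelled libraries, with no change past the test.

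Among the enzymes of amino acid synthesis, Asns and Psat1 rose in both livers. Asns makes asparagine and is a classical ATF4 target. It had 42.7 and 38.6 CPM with Veh and 62.3 and 56.4 CPM with CC in normal-labelled macrophages, and 23.5 and 24.2 CPM with Veh and 41.4 and 40.3 CPM with CC in steatotic-labelled ones. The log2 fold changes were 0.58 ± 0.075 (SE, adjusted p = 0.00250) and 0.79 ± 0.076 (SE, adjusted p = 0.000250), and both calls held with any 1 library left out. Psat1, the second enzyme of serine synthesis, rose from 13.0 and 11.1 to 22.3 and 31.3 CPM (log2 fold change 1.19 ± 0.23 SE, adjusted p = 0.0199) and from 5.12 and 6.67 to 18.5 and 13.9 CPM (log2 fold change 1.48 ± 0.23 SE, adjusted p = 0.00467). The call in normal-labelled macrophages was lost without either Veh library or the second CC library (adjusted p up to 0.114). Phgdh, the first enzyme of the same route, was near the bottom of the range, at 0.963 and 1.13 CPM with Veh and 1.57 and 1.36 CPM with CC in normal-labelled and 2.44 and 2.73 CPM with Veh and 2.68 and 1.76 CPM with CC in steatotic-labelled libraries, and did not pass the test with CC.

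In mitochondrial folate metabolism the results differed by gene. Mthfd2 rose slightly, from 95.3 and 94.7 to 109 and 109 CPM (log2 fold change 0.23 ± 0.049 SE, adjusted p = 0.0222) and from 87.1 and 80.8 to 94.4 and 97.8 CPM (log2 fold change 0.21 ± 0.049 SE, adjusted p = 0.0185). The first call was lost without any 1 of its 4 libraries (adjusted p up to 0.0964) and the second without the second steatotic-labelled Veh or CC library (up to 0.117). Shmt2, which provides the one-carbon unit for that step, had 48.9 and 43.9 CPM with Veh and 47.1 and 46.7 CPM with CC in normal-labelled macrophages. It fell in steatotic-labelled ones, from 29.8 and 33.2 to 26.0 and 24.6 CPM (log2 fold change -0.30 ± 0.081 SE, adjusted p = 0.0333). That call was lost without any of 5 libraries, namely the normal-labelled CC libraries, the second steatotic-labelled Veh library and the steatotic-labelled CC libraries (adjusted p up to 0.179), and under the replicate block (adjusted p = 0.0529).

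The subunits of the amino acid carrier LAT1 also parted. Slc3a2, the heavy chain, which also pairs with other light chains, rose from 743 and 747 to 1050 and 985 CPM in normal-labelled macrophages (log2 fold change 0.49 ± 0.077 SE, adjusted p = 0.00811) and from 699 and 631 to 972 and 849 CPM in steatotic-labelled ones (log2 fold change 0.47 ± 0.077 SE, adjusted p = 0.00470). The normal-labelled call was lost without either Veh library or the first CC library (adjusted p up to 0.0575). Slc7a5, the light chain, had 34.0 and 38.2 CPM with Veh and 34.8 and 33.0 CPM with CC in normal-labelled macrophages, groups that overlapped. In steatotic-labelled macrophages it fell from 29.0 and 29.8 to 22.2 and 23.6 CPM (log2 fold change -0.34 ± 0.080 SE, adjusted p = 0.0192), a call lost without either Veh library or the first CC library there (adjusted p up to 0.103). Shmt2 overlaps Ndufa4l2, Slc7a5 overlaps Gm20388 and Ppp1r15a overlaps Tulp2, each on the opposite strand.

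Of the 4 ATF4 arm genes with the ATF4 motif in their window, Asns, Atf3, Chac1 and Trib3, 4 rose in normal-labelled and 3 in steatotic-labelled macrophages, beside 6.27% and 12% of all genes. With any 1 of the 4 normal-labelled libraries left out, Chac1 lost its call and 3 rose there. Ddit3, Psat1, Mthfd2 and Slc3a2 rose in both livers with no match in theirs.

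Of the 4 genes for the sensors of ER stress and Xbp1, 1 rose and 0 fell with CC in normal-labelled macrophages (6.27% and 5.54% of all genes), and 2 rose and 1 fell in steatotic-labelled ones (12% and 10.9% of all genes). Ern1, which encodes IRE1, rose from 87.5 and 95.1 CPM with Veh to 116 and 105 CPM with CC in normal-labelled macrophages (log2 fold change 0.31 ± 0.062 SE, adjusted p = 0.0172). In steatotic-labelled ones it rose from 99.3 and 96.4 to 130.3 and 132 CPM (log2 fold change 0.44 ± 0.062 SE, adjusted p = 0.00178). The former call was lost without the first normal-labelled Veh or CC library (adjusted p up to 0.0936). Atf6 had 155 and 160.3 CPM with Veh and 150.3 and 152 CPM with CC in normal-labelled macrophages (log2 fold change -0.026 ± 0.039 SE, adjusted p = 0.750). In steatotic-labelled macrophages it fell from 183 and 183 to 140.3 and 145 CPM (log2 fold change -0.34 ± 0.039 SE, adjusted p = 0.000664), with the CC group below the Veh group and below both normal-labelled groups. Eif2ak3 did not pass the test, at 18.6 and 16.3 CPM with Veh and 14.3 and 14.9 CPM with CC in normal-labelled and 16.3 and 18.1 CPM with Veh and 15.0 and 14.9 CPM with CC in steatotic-labelled libraries, although both CC groups lay below their Veh group.

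Xbp1, the target of IRE1, rose in steatotic-labelled macrophages from 31.0 and 29.8 to 35.4 and 45.1 CPM (log2 fold change 0.42 ± 0.11 SE, adjusted p = 0.0291). The call was lost without either Veh library or the second CC library (adjusted p up to 0.135). In normal-labelled macrophages it had 42.4 and 43.2 CPM with Veh and 48.5 and 44.7 CPM with CC (log2 fold change 0.16 ± 0.11 SE, adjusted p = 0.423). Counts per gene do not separate spliced from unspliced Xbp1, so these values give its total RNA.

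With all libraries, the main chaperones of the ER did not pass the test with CC. Hspa5 encodes BiP, the chaperone that keeps the sensors inactive and the usual marker of the response. It had 413 and 397 CPM with Veh and 414 and 410.0 CPM with CC in normal-labelled macrophages, and 359 and 324 CPM with Veh and 366 and 372 CPM with CC in steatotic-labelled ones. The log2 fold changes were 0.061 ± 0.052 (SE, adjusted p = 0.533) and 0.13 ± 0.052 (SE, adjusted p = 0.132), with 95% intervals of -0.060 to 0.18 and 0.0059 to 0.25. Without the first steatotic-labelled Veh library, the change there passed the test (log2 fold change 0.21, adjusted p = 0.0296). The intervals of Ddit3 in the same comparisons were 0.60 to 0.80 and 0.93 to 1.14, above those of Hspa5 in both livers.

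Hsp90b1, the ER form of HSP90, was at 431 and 428 CPM with Veh and 406 and 403 CPM with CC in normal-labelled and at 295 and 299 CPM with Veh and 276 and 279 CPM with CC in steatotic-labelled libraries, with log2 fold changes of -0.050 (95% interval -0.12 to 0.024) and -0.079 (-0.15 to -0.0051). Calr and Canx encode the lectin chaperones of new glycoproteins. Calr had 593 and 590.3 CPM with Veh and 561 and 558 CPM with CC in normal-labelled and 416 and 429 CPM with Veh and 442 and 457 CPM with CC in steatotic-labelled libraries, with log2 fold changes of -0.045 (95% interval -0.12 to 0.033) and 0.11 (0.028 to 0.18). For Canx the levels were 535 and 530.1 CPM with Veh and 519.9 and 515 CPM with CC and then 408 and 418 CPM with Veh and 414 and 403 CPM with CC, with log2 fold changes of -0.0054 and 0.0012. Hyou1, Manf, Sdf2l1 and Dnajc3, further ER chaperones and cofactors, did not pass the test either, with log2 fold changes from -0.13 for Sdf2l1 to 0.073 for Manf in normal-labelled and from -0.14 for Dnajc3 to 0.078 for Manf in steatotic-labelled macrophages.

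**Figure D3:**
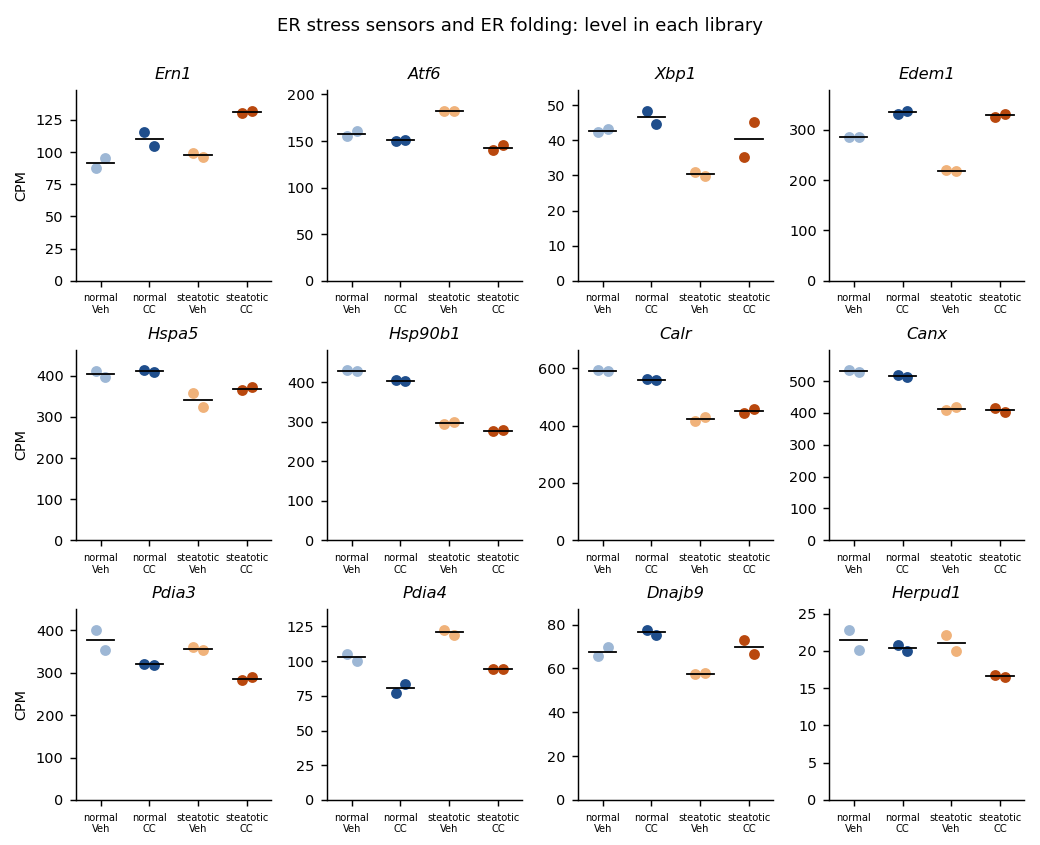
Level of 3 sensor genes and 9 ER folding genes in each library in CPM from 0, with a point per library and a line at the mean of the 2 libraries of a group. Edem1 is higher with CC (dark) in both livers, Atf6 is lower with CC in the steatotic-labelled group, and Hsp90b1, Calr and Canx are lower in the steatotic-labelled groups whatever the treatment.

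Edem1 encodes a protein that passes misfolded glycoproteins to degradation. It rose from 287 and 285 CPM with Veh to 331 and 339 CPM with CC in normal-labelled macrophages (log2 fold change 0.26 ± 0.034 SE, adjusted p = 0.00247), and from 219 and 217 to 325 and 333 CPM in steatotic-labelled ones (log2 fold change 0.61 ± 0.034 SE, adjusted p = 1.87e-05). Both calls held with any library left out. Herpud1, of the same degradation route, fell in steatotic-labelled macrophages from 22.2 and 19.99 to 16.8 and 16.5 CPM (log2 fold change -0.32 ± 0.093 SE, adjusted p = 0.0417), and lost this call without any 1 of 6 libraries, all but the normal-labelled Veh libraries (adjusted p up to 0.199). Dnajb9, a BiP cofactor induced by XBP1, went from 57.4 and 57.8 to 73.2 and 66.7 CPM there (log2 fold change 0.30 ± 0.060 SE, adjusted p = 0.0104), and lost the call without either Veh library or the first CC library (adjusted p up to 0.0567).

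Pdia3, Pdia4 and Pdia6 encode isomerases that form disulfide bonds in new proteins. Pdia4 fell from 105 and 100.4 to 76.8 and 83.8 CPM in normal-labelled (log2 fold change -0.32 ± 0.055 SE, adjusted p = 0.00903) and from 123 and 119 to 94.5 and 94.2 CPM in steatotic-labelled macrophages (log2 fold change -0.34 ± 0.054 SE, adjusted p = 0.00339). Its normal-labelled call was lost without the first Veh or the first CC library (adjusted p up to 0.0613). Pdia3 fell in steatotic-labelled macrophages, from 360.0 and 354 to 284 and 289 CPM (log2 fold change -0.30 ± 0.058 SE, adjusted p = 0.00812), and had 402 and 353 against 321 and 319 CPM in normal-labelled ones (adjusted p = 0.0703). The latter change passed the test without the second normal-labelled Veh library (adjusted p = 0.00967), when scaled by library size alone (adjusted p = 0.0383) and with no filter on low counts (adjusted p = 0.0227). Pdia6 fell in normal-labelled macrophages, from 108 and 109 to 95.2 and 91.5 CPM (log2 fold change -0.17 ± 0.042 SE, adjusted p = 0.0378), a call lost with any 1 of the 8 libraries left out (adjusted p up to 0.186), with DESeq2 (adjusted p = 0.0801) and under the replicate block (adjusted p = 0.0570). In steatotic-labelled libraries it had 88.7 and 86.6 against 83.3 and 83.4 CPM. For these 3 genes, every CC library lay below both Veh libraries of its liver. Creld2, a secreted ER stress protein with isomerase activity, rose in steatotic-labelled macrophages from 22.2 and 22.1 to 26.3 and 26.1 CPM (log2 fold change 0.26 ± 0.074 SE, adjusted p = 0.0414), a call lost without 5 of the libraries, the second normal-labelled CC library and all 4 steatotic-labelled ones (adjusted p up to 0.153), with DESeq2 (adjusted p = 0.0649) and under the replicate block (adjusted p = 0.0649).

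Of the 7 ER folding genes with the ER element in their window, 0 rose and 1 fell with CC in normal-labelled macrophages, and 1 rose and 0 fell in steatotic-labelled ones. Of all genes, 6.27% rose and 5.54% fell in normal-labelled macrophages and 12% and 10.9% in steatotic-labelled ones. Edem1, with the list's largest increase in both livers, had no match. Pdia3 overlaps Catsper2, Pdia6 overlaps Atp6v1c2 and Manf overlaps Dcaf1 on the opposite strand, and Manf also overlaps Rbm15b on its own.

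To ask whether the response differed between the livers, the change with CC in normal-labelled macrophages was subtracted from that in steatotic-labelled ones in the same model. Of the 36 genes, 2 had a more positive change in steatotic-labelled macrophages and 1 a more negative one, where 1.95% and 1.27% of all genes did. Ddit3 rose by 0.33 more on the log2 scale (SE 0.062, adjusted p = 0.0336) and Edem1 by 0.34 more (SE 0.048, adjusted p = 0.0109). Atf6, at -0.31 (SE 0.055, adjusted p = 0.0275), fell in steatotic-labelled and not past the test in normal-labelled macrophages. These calls were close to the threshold. That of Edem1 was lost without the first normal-labelled CC library (adjusted p = 0.0508), that of Ddit3 without any library but the second normal-labelled Veh library (up to 0.124) and under the replicate block (adjusted p = 0.0507), and that of Atf6 without any library but the second steatotic-labelled CC library (up to 0.0959). The remaining 33 genes did not pass this test. Among them are Atf3 (difference 0.22, 95% interval 0.060 to 0.37), Trib3 (0.20, 0.022 to 0.38), Asns (0.21, -0.036 to 0.46) and Hspa5 (0.066, -0.11 to 0.24).

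Between the livers, more members passed the test on their levels than on the difference of their responses, which has a larger SE. With Veh, 7 of 17 ATF4 arm genes were lower and 3 higher in steatotic-labelled than in normal-labelled macrophages, and 8 of 15 ER folding genes were lower and 1 higher. Among all genes tested, 14.3% were lower and 16.4% higher. With CC, 6 ATF4 arm genes were lower and 3 higher, and 6 ER folding genes were lower and 1 higher, beside 12.9% and 15.9% of all genes. The median log2 difference of the ER folding list was -0.20 with Veh and -0.14 with CC, and that of all genes -0.0095 and 0.0026. The comparison of livers with Veh shares its Veh libraries with both comparisons of CC against Veh, so their values are not independent of each other. Other cell types also differed by label: with Veh, 6 of 8 tested hepatocyte markers were lower and 8 of 8 T and NK cell markers higher in the steatotic-labelled libraries, at the summed levels given above, and of the 10 macrophage markers 7 were higher and 2 lower. Of 7 tested sinusoidal endothelial markers, 4 were higher and 1 lower, with sums of 149 CPM in normal-labelled and 249.7 CPM in steatotic-labelled libraries. Of 8 stellate cell and fibroblast markers Dcn alone was tested, at 2.14 and 2.07 CPM in normal-labelled and 20.8 and 17.4 CPM in steatotic-labelled libraries with Veh, and each of the others stayed under 0.5 CPM. Their part in these differences was not tested.

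In the ER, Hsp90b1, Calr and Canx were lower in steatotic-labelled macrophages with either treatment. The log2 difference of Hsp90b1, from the levels given above, was -0.49 ± 0.032 (SE, adjusted p = 2.56e-05) with Veh and -0.52 ± 0.032 (SE, adjusted p = 2.16e-05) with CC. Calr was lower by label at -0.44 ± 0.033 (SE, adjusted p = 5.48e-05) and -0.29 ± 0.033 (SE, adjusted p = 0.000569), and Canx at -0.32 ± 0.033 (SE, adjusted p = 0.000286) and -0.31 ± 0.033 (SE, adjusted p = 0.000375). For each of these 3 genes all steatotic-labelled libraries lay below all 4 normal-labelled ones, and the calls held with any library left out. Hyou1, a large chaperone that exchanges nucleotide on BiP, had 78.7 and 81.4 CPM with Veh and 82.2 and 78.8 CPM with CC in normal-labelled against 68.5 and 65.2 CPM with Veh and 62.7 and 63.2 CPM with CC in steatotic-labelled libraries. It was lower with CC (log2 difference -0.33 ± 0.050 SE, adjusted p = 0.00217) and with Veh (log2 difference -0.21 ± 0.049 SE, adjusted p = 0.0141), the latter call being lost without the second normal-labelled or second steatotic-labelled Veh library (adjusted p up to 0.0920).

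Hspa5 was lower with Veh (log2 difference -0.20 ± 0.052 SE, adjusted p = 0.0235), lost without the first normal-labelled or the second steatotic-labelled Veh library (adjusted p up to 0.109) and in the 4 Veh libraries alone (adjusted p = 0.0576). With CC the difference was -0.13 ± 0.052 (SE, adjusted p = 0.0995), and it passed the test without the first or the second steatotic-labelled Veh library (adjusted p = 0.0361 and 0.0439) and in the 4 CC libraries alone (adjusted p = 0.0408). Edem1 was lower with Veh (log2 difference -0.34 ± 0.034 SE, adjusted p = 0.000217) and with CC did not differ past the test (log2 difference -0.00010 ± 0.034 SE, adjusted p = 1.000). Pdia6 was lower with Veh (log2 difference -0.26 ± 0.042 SE, adjusted p = 0.00306) and with CC (log2 difference -0.14 ± 0.042 SE, adjusted p = 0.0458), and the second call was lost without any 1 of 6 libraries, all but the normal-labelled Veh libraries (adjusted p up to 0.206), with DESeq2 (adjusted p = 0.122) and under the replicate block (adjusted p = 0.0618). Creld2 was lower with Veh (log2 difference -0.32 ± 0.074 SE, adjusted p = 0.0132), a call lost without the first normal-labelled or either steatotic-labelled Veh library (adjusted p up to 0.0760). Dnajc3, which had 84.9 and 79.1 CPM with Veh and 78.7 and 78.4 CPM with CC in normal-labelled and 76.7 and 73.9 CPM with Veh and 67.2 and 67.8 CPM with CC in steatotic-labelled libraries, was lower with CC (log2 difference -0.19 ± 0.050 SE, adjusted p = 0.0254), lost without any 1 of the 4 CC libraries (adjusted p up to 0.0970).

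Pdia4 went the other way and was higher in steatotic-labelled macrophages with Veh (log2 difference 0.28 ± 0.054 SE, adjusted p = 0.00661) and with CC (log2 difference 0.26 ± 0.055 SE, adjusted p = 0.0101), the latter lost without the first normal-labelled CC library (adjusted p = 0.0606). Of the 7 genes with the ER element, 6 were lower with Veh and 5 with CC, beside 14.3% and 12.9% of all genes. The calls of Hspa5 and Creld2 with Veh and of Pdia6 and Dnajc3 with CC are among those lost with single libraries left out, as given above. Dnajc3 was the one that did not pass with Veh (log2 difference -0.077 ± 0.050 SE, adjusted p = 0.295). The levels of Manf were 78.6 and 76.3 CPM with Veh and 82.0 and 76.9 CPM with CC against 61.0 and 69.3 CPM with Veh and 66.1 and 69.8 CPM with CC, and those of Sdf2l1 29.8 and 30.2 CPM with Veh and 26.4 and 27.2 CPM with CC against 26.2 and 27.2 CPM with Veh and 26.2 and 26.9 CPM with CC, and neither gene passed either test between livers. Manf was lower with Veh without the second steatotic-labelled Veh library (adjusted p = 0.0264), with CC without the first or the second of them (adjusted p = 0.0383 and 0.0445), and with either treatment when scaled by library size alone (adjusted p = 0.0314 and 0.0490). Dnajb9, Pdia3 and Herpud1 did not pass them either, at -0.19, -0.034 and 0.020 with Veh and -0.10, -0.14 and -0.27 with CC. Pdia3 passed the test with CC without the first or the second normal-labelled Veh library (adjusted p = 0.0219 and 0.0219) and in the 4 CC libraries alone (adjusted p = 0.0434). Dnajb9 was lower with Veh without the first or the second steatotic-labelled CC library (adjusted p = 0.0370 and 0.0360) and when scaled by library size alone (adjusted p = 0.0218). It had 65.6 and 69.6 CPM with Veh and 77.7 and 75.4 CPM with CC in normal-labelled macrophages, a change that, of the alternatives run, passed the test only without the first or the second steatotic-labelled CC library (adjusted p = 0.0445 and 0.0437), and Herpud1 22.9 and 20.1 CPM with Veh and 20.7 and 20.03 CPM with CC.

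**Figure D4:**
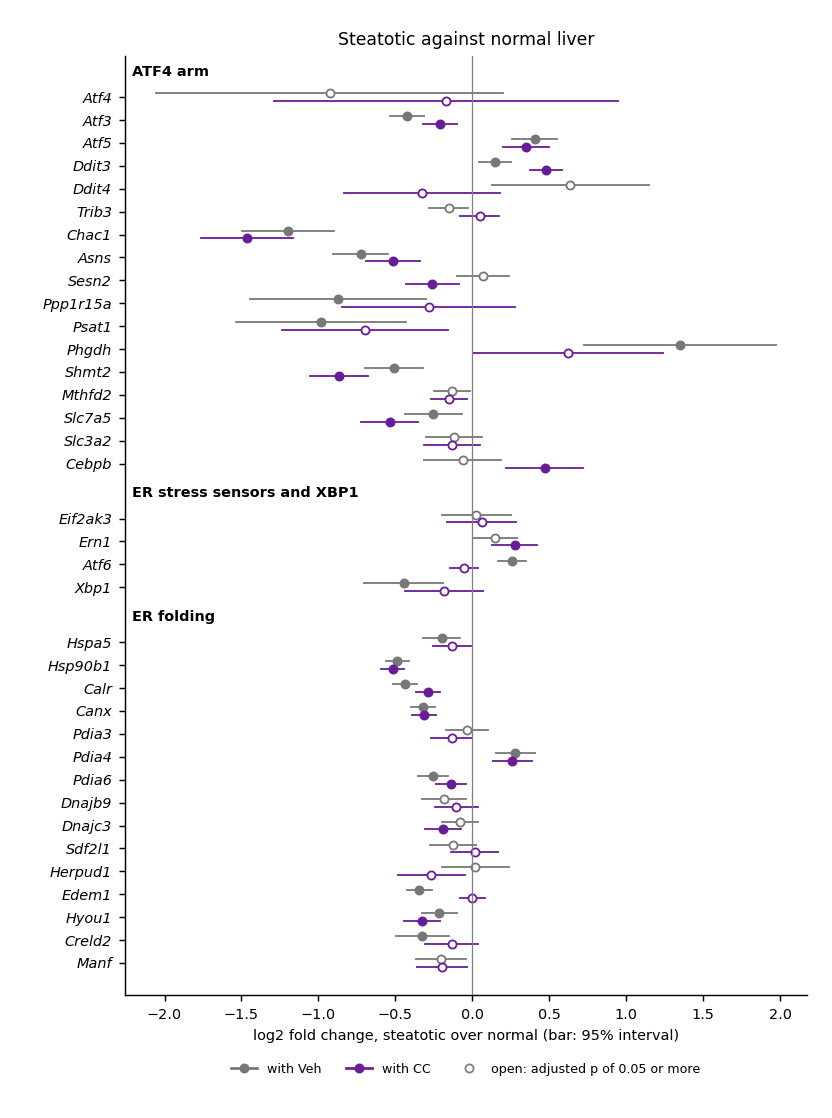
Log2 fold change of each of the 36 genes in steatotic-labelled over normal-labelled macrophages, with Veh (grey) and with CC (purple), with the 95% confidence interval as a bar and filled points for an adjusted p under 0.05. Chac1, Asns and Shmt2 and most ER folding genes lie to the left of 0 with both treatments, whereas Atf5, Ddit3 and Pdia4 lie to the right.

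In the ATF4 arm, Chac1 and Asns were lower in steatotic-labelled macrophages with either treatment. Chac1 differed by -1.20 ± 0.13 (SE, adjusted p = 0.000333) with Veh and -1.46 ± 0.13 (SE, adjusted p = 0.000137) with CC, and Asns by -0.73 ± 0.076 (SE, adjusted p = 0.000292) and -0.51 ± 0.075 (SE, adjusted p = 0.00188). After CC, Asns in steatotic-labelled macrophages, at 41.4 and 40.3 CPM, was at the level of normal-labelled macrophages with Veh, at 42.7 and 38.6 CPM. Shmt2 was lower at -0.51 ± 0.081 (SE, adjusted p = 0.00243) and -0.86 ± 0.081 (SE, adjusted p = 0.000198). These 6 calls held with any library left out.

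Atf3 was lower with Veh (log2 difference -0.43 ± 0.048 SE, adjusted p = 0.000413) and with CC (log2 difference -0.21 ± 0.047 SE, adjusted p = 0.0138), where the call was lost without the first normal-labelled or the second steatotic-labelled CC library (adjusted p up to 0.0857). Psat1 was lower with Veh (log2 difference -0.99 ± 0.23 SE, adjusted p = 0.0189), lost without the first normal-labelled or first steatotic-labelled Veh library (up to 0.102). With CC its difference passed the test without the first normal-labelled CC library (adjusted p = 0.0347) and with DESeq2 (adjusted p = 0.00671). Slc7a5 was lower with CC (log2 difference -0.54 ± 0.080 SE, adjusted p = 0.00203), and with Veh the call (log2 difference -0.25 ± 0.079 SE, adjusted p = 0.0470) was lost without any library but the first normal-labelled Veh library (adjusted p up to 0.218), with DESeq2 (adjusted p = 0.0630) and under the replicate block (adjusted p = 0.0596). Ppp1r15a was lower with Veh (log2 difference -0.87 ± 0.22 SE, adjusted p = 0.0388), a call lost without any 1 of 5 libraries, namely the first normal-labelled Veh library, the normal-labelled CC libraries and the steatotic-labelled Veh libraries (adjusted p up to 0.168), and under the replicate block (adjusted p = 0.0673). Sesn2 was lower with CC (log2 difference -0.26 ± 0.073 SE, adjusted p = 0.0334), lost without the second normal-labelled or either steatotic-labelled CC library (adjusted p up to 0.165) and under the replicate block (adjusted p = 0.0528).

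Ddit3 stood higher in steatotic-labelled macrophages with CC (log2 difference 0.48 ± 0.044 SE, adjusted p = 0.000176), and this call held with any library left out. With Veh its difference was small (log2 difference 0.15 ± 0.044 SE, adjusted p = 0.0393) and the call was lost without any library but the first normal-labelled Veh library (adjusted p up to 0.186) and with DESeq2 (adjusted p = 0.0886). Atf5 was higher with Veh (log2 difference 0.40 ± 0.063 SE, adjusted p = 0.00236) and CC (log2 difference 0.35 ± 0.063 SE, adjusted p = 0.00527). Phgdh was higher with Veh (log2 difference 1.35 ± 0.27 SE, adjusted p = 0.00702), at a level under 3 CPM. Cebpb was higher with CC (log2 difference 0.47 ± 0.11 SE, adjusted p = 0.0158), lost without the second normal-labelled or the second steatotic-labelled CC library (adjusted p up to 0.0887). Trib3, Mthfd2, Slc3a2 and Ddit4 passed neither test between livers with all libraries. Mthfd2, whose CC libraries did not overlap between livers, was lower with CC without the first or the second steatotic-labelled Veh library (adjusted p = 0.0409 and 0.0479) and with a filter of 0.5 CPM in at least 2 libraries (adjusted p = 0.0467), and with either treatment when scaled by library size alone (adjusted p = 0.0281 with Veh and 0.0300 with CC). Trib3 was lower with Veh without the first steatotic-labelled Veh library (adjusted p = 0.0462) and when scaled by library size alone (adjusted p = 0.0267).

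In the list of sensors and Xbp1, 1 of 4 genes was higher and 1 was lower in steatotic-labelled macrophages with Veh (16.4% and 14.3% of all genes), and 1 was higher with CC (15.9%). Atf6 was higher in steatotic-labelled macrophages with Veh (log2 difference 0.26 ± 0.039 SE, adjusted p = 0.00198) and with CC did not differ past the test (log2 difference -0.054 ± 0.039 SE, adjusted p = 0.360). Ern1 was higher with CC (log2 difference 0.27 ± 0.062 SE, adjusted p = 0.0137), lost without the second normal-labelled or the second steatotic-labelled CC library (adjusted p up to 0.0803). Xbp1 was lower with Veh (log2 difference -0.45 ± 0.11 SE, adjusted p = 0.0179), a call lost without any 1 of the 4 Veh libraries (adjusted p up to 0.0894), and with CC passed the test without the second steatotic-labelled CC library (adjusted p = 0.0232). Eif2ak3 passed neither test.

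Levels of different genes were set side by side per kb of summed exon length, a rough scale, as a cell need not use all annotated exons. In normal-labelled macrophages with Veh, the ER folding list ran from 9.20 CPM per kb for Herpud1 to 206 for Calr. Hspa5 stood at 95.8 and Ddit3 at 47.8 CPM per kb. In steatotic-labelled macrophages with CC, Ddit3 was at 104 and Hspa5 at 87.2 CPM per kb, so that on this scale their order was the opposite there. These values lie close together for so rough a scale. Reads of Mars, which overlaps Ddit3 on the opposite strand, may also be shared.

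Other known targets of ATF4 were read against the shares of all genes, 6.27% higher and 5.54% lower with CC in normal-labelled and 12% and 10.9% in steatotic-labelled macrophages. A change in such a gene does not show which factor acted, and this was not tested. Of 15 tested genes for amino acid transport and synthesis, 3 rose and 0 fell with CC in normal-labelled macrophages, and 2 rose and 2 fell in steatotic-labelled ones, where the list's median was 0.012 and its shares were near those of all genes. Slc7a11, the light chain of the cystine carrier that pairs with Slc3a2, had 8.56 and 9.91 CPM with Veh and 18.5 and 18.3 CPM with CC in normal-labelled, and 9.29 and 7.91 CPM with Veh and 67.0 and 65.8 CPM with CC in steatotic-labelled libraries. It rose by 1.03 ± 0.10 (SE, adjusted p = 0.000796) and 2.97 ± 0.11 (SE, adjusted p = 3.16e-06), and the responses differed by 1.93 ± 0.15 (SE, adjusted p = 0.00153). The carrier genes Slc6a9 (glycine, 1.08) and Slc7a1 (arginine and lysine, 0.46) rose in normal-labelled macrophages, the former call lost without the first Veh or first CC library (adjusted p up to 0.0830). In steatotic-labelled ones Slc7a1 rose (0.27, lost without the first Veh or the second CC library, adjusted p up to 0.0789) and Got1, an aminotransferase, fell (-0.37). Cth, which makes cysteine, also passed the test there but at 0.278 and 0.489 CPM with Veh and 0.0305 and 0.0805 CPM with CC, near the 0.0403 to 0.0457 CPM that 3 counts make in the CC libraries, so no fold is given.

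Of 10 tested regulators and secreted factors, 3 rose and 0 fell in normal-labelled, and 3 rose and 1 fell in steatotic-labelled macrophages, beside the shares of all genes just given. Vegfa, a growth factor for vessels, rose by 1.51 and 1.74, and Sqstm1, a cargo receptor of autophagy, by 0.68 and 0.99. Gdf15, a secreted stress factor, had 57.8 and 57.5 CPM with Veh and 121 and 112 CPM with CC in normal-labelled, and 8.59 and 6.65 CPM with Veh and 30.9 and 24.5 CPM with CC in steatotic-labelled libraries. It rose in both (1.05, lost without the first normal-labelled Veh library at an adjusted p of 0.0523, and 1.88). It was lower in steatotic-labelled macrophages with Veh (log2 difference -2.87 ± 0.16 SE, adjusted p = 3.67e-05) and with CC (log2 difference -2.05 ± 0.15 SE, adjusted p = 0.000159), and every steatotic-labelled library lay below every normal-labelled one. Eif4ebp1, a repressor of translation, fell in steatotic-labelled macrophages (-0.23).

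Of 20 cytosolic tRNA synthetases, which ATF4 also induces in part, 4 rose and 1 fell in normal-labelled (6.27% and 5.54% of all genes), and 5 rose and 4 fell in steatotic-labelled macrophages (12% and 10.9% of all genes), medians 0.13 and 0.017. Aars (alanine) rose by 0.37 and 0.51 and Eprs (glutamate and proline) by 0.33 and 0.32. Sars (serine) rose by 0.31 and 0.29. Dars (aspartate) fell in both, with log2 fold changes of -0.24, lost without any 1 of the 4 normal-labelled libraries (adjusted p up to 0.0724), and -0.30. Vars (valine, -0.34) and Qars (glutamine, -0.30, lost without the first steatotic-labelled Veh library at an adjusted p of 0.0544) fell in steatotic-labelled macrophages. With Veh, 10 of the 20 were lower and 0 higher in steatotic-labelled macrophages, beside 14.3% and 16.4% of all genes. Of the 11 genes for eIF2, its kinases, exchange factor and second phosphatase subunit, 1 rose in normal-labelled and 2 in steatotic-labelled macrophages, and 0 fell, which is near the shares of all genes. Ppp1r15b, the constitutive counterpart of Ppp1r15a, rose by 0.14 and 0.17, and Eif2ak4, the kinase GCN2 that senses amino acids, by 0.41 in steatotic-labelled macrophages. The calls of Ppp1r15b were lost without any 1 of the 8 libraries in normal-labelled (adjusted p up to 0.213) and without either Veh or the second CC library in steatotic-labelled macrophages (up to 0.0838), and that of Eif2ak4 without the first Veh or the second CC library there (up to 0.0569).

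Further ER genes passed the test about as often as all genes in steatotic-labelled macrophages. Of 33 tested genes for folding, degradation and translocation, 0 rose and 1 fell in normal-labelled (6.27% and 5.54% of all genes), and 4 rose and 4 fell in steatotic-labelled macrophages (12% and 10.9% of all genes), medians -0.012 and 0.083. Os9, a lectin of ER degradation, fell in normal-labelled macrophages (-0.18), a call lost without either Veh library, the first CC library or either steatotic-labelled Veh library (adjusted p up to 0.169). In steatotic-labelled ones, Wfs1, an ER membrane protein, had a log2 fold change of 0.80, the oxidase Ero1l 0.41, the glycoprotein sensor Uggt1 -0.29 and Os9 -0.28.

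Some chaperones outside the ER rose. Of 7 mitochondrial chaperones and proteases, 1 rose in normal-labelled and 2 in steatotic-labelled macrophages and 0 fell (6.27% and 12% of all genes rose), with medians of 0.11 and 0.014, among them Hspa9 (mortalin, 0.33 and 0.57) and Hspd1 (HSP60, 0.18 in steatotic-labelled, lost without the second Veh or second CC library there, adjusted p up to 0.146). With Veh, 6 of the 7 were lower in steatotic-labelled macrophages, beside 14.3% of all genes. Of 12 cytosolic heat shock genes, 4 rose in normal-labelled and 3 in steatotic-labelled macrophages and 0 fell, against the same shares, with medians of 0.14 and -0.0062. The inducible HSP70 genes Hspa1a (0.81 and 1.38) and Hspa1b (0.80 and 1.28), which are near-identical copies whose reads cannot be divided with certainty, rose in both, as did Hsph1 (0.40 and 0.56). Bag3, their cofactor, rose in normal-labelled macrophages (0.23), a call lost without any 1 of those 4 libraries (adjusted p up to 0.0961). Beside Slc7a11, the test of the difference between responses was passed in these lists by Sqstm1 (0.32), Hspa9 (0.24), Bag3 (-0.34) and the isoleucine tRNA synthetase Iars (-0.40). Sqstm1 lost it without the second normal-labelled Veh or the first normal-labelled CC library (adjusted p up to 0.0575), Iars without the first normal-labelled CC or the second steatotic-labelled Veh library (up to 0.0658), and Hspa9 and Bag3 without any 1 of the 8 libraries (up to 0.156 and 0.138).

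**Figure D5:**
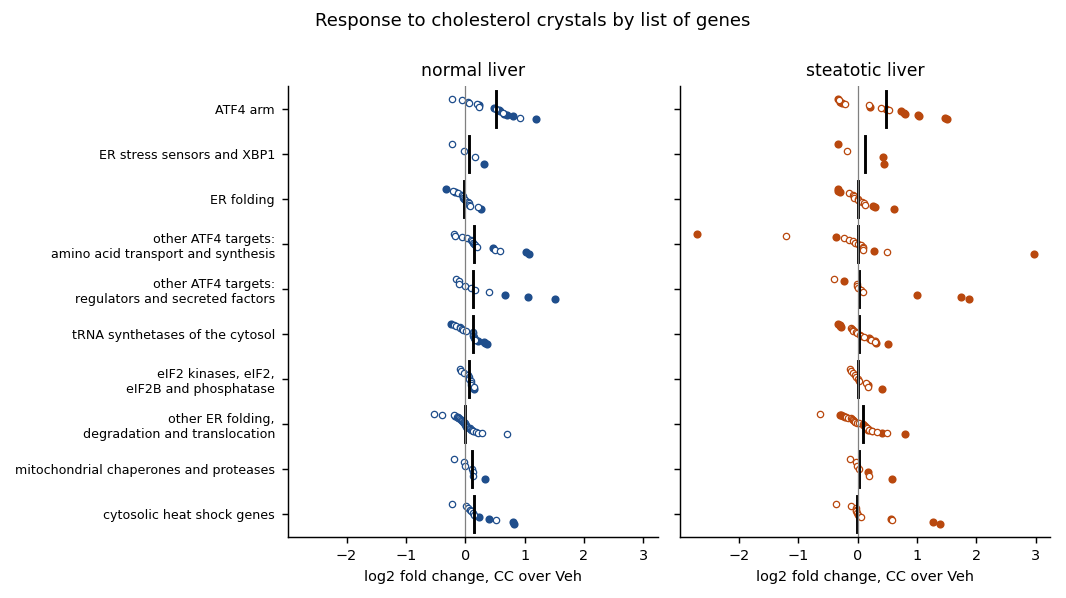
Log2 fold change with CC over Veh of each tested gene in the 3 member lists and the 7 further lists, in normal-labelled (left) and steatotic-labelled (right) macrophages on a shared axis, with filled points for an adjusted p under 0.05, a black bar at each list's median and a grey line at the median of all genes tested. The ATF4 arm has the highest median in both livers, at 0.52 and 0.47, the ER lists are near 0, Slc7a11 at 2.97 is the rightmost point, and the leftmost filled point is Cth, whose level lies near the limit of 3 counts.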

How the data were processed

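Total poly(A) RNA of 8 macrophage cultures was sequenced as directional libraries. The submitters' processing notes name fastp, HISAT2, StringTie and the build mm10, with versions not given in the sources used here. The authors deposited estimated counts per gene for all 8 libraries in one table. The values are whole numbers, and how StringTie coverage was turned into counts and whether strand was used are not given, so the counts of 1 gene may include reads of its neighbours. Values in the table were not scaled to each other, and library totals ran from 58668655 to 74529462 counts. CPM is the count over that total. The value 4 stood on 981 to 1200 rows of a library, more than 3 (388 to 466 rows) or 5 (537 to 657 rows), so 1 read pair may be worth about 4 counts. A level of 3 counts, 0.0403 to 0.0511 CPM, may then be less than 1 read pair, low counts such as those of Mc4r stand for fewer pairs than counts, and 1 alternative divided the counts by 4. Such limits cover counting error only.

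A row was kept where 1 or more libraries reached 0.5 CPM, which left 15202 of 55401 rows. All 8 libraries entered one model of 4 groups in edgeR 4.0.16 (R 4.3.3), with TMM scaling (factors 0.981 to 1.03), robust quasi-likelihood tests, 2-sided p-values and Benjamini-Hochberg adjustment over all genes tested at 0.05. The 5 comparisons were CC against Veh in each liver, the difference between these, and steatotic-labelled against normal-labelled with Veh and with CC. All adjusted p-values are from this fit unless another is named, and they measure the spread between libraries, which may be technical. Alternatives were other scalings, filters, a prior count of 4, a replicate block, DESeq2 1.42.0, the 4 libraries of a comparison alone, a threshold of 0.1 and each library left out. The fit and the tests were tested on simulated data.

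All 36 members are reported. From each further list the genes named are up to 4 called genes with the largest absolute log2 value in each comparison of CC, the difference included. The members and lists were chosen with earlier results of these data known. Promoter windows are from RefSeq on GRCm38.p6, and gene positions and exon lengths are from GENCODE M21 on GRCm38. Motifs were matched letter by letter on both strands.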

Additional observations from a re-analysis of the deposited data

Results flagged for a closer look

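The change with CC differed between the livers, by a test of the difference itself, for 3 of the 36 genes. For Ddit3 the log2 change with CC was 0.3322 higher in steatotic-labelled than in normal-labelled macrophages, with 0.70 in normal-labelled and 1.03 in steatotic-labelled libraries. For Edem1 it was 0.3436 higher, with 0.26 and 0.61. For Atf6 the difference was -0.3121, with -0.026 and -0.34. In each gene the libraries of a group lay close together, and the call was lost without at least 1 library. The response was more negative in steatotic-labelled macrophages for 1 of 10 macrophage, 1 of 5 Kupffer cell and 1 of 7 tested sinusoidal endothelial markers, beside 1.27% of all genes. It was more positive for 1 of 4 tested plasma cell and 1 of 2 tested neutrophil markers, beside 1.95% of all genes. These are counts of genes and do not show the cells. With CC in steatotic-labelled libraries, means in the plasma cell list ran from 0 CPM for Tnfrsf17 to 667.8 CPM for Sdc1. In the neutrophil list they ran from 0 CPM for Ly6g to 126.3 CPM for Csf3r, with S100a8 at 18.82 CPM. The part of these markers in these differences was not tested.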

How the results depend on the processing

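Of the members called in each comparison, 5 of 12 with CC in normal-labelled, 12 of 21 with CC in steatotic-labelled, 13 of 21 between livers with Veh, 10 of 17 with CC and 0 of 3 for the difference of responses kept their call under every alternative fit. The sign of a value with a call turned in 1 case: the response of Atf4 in normal-labelled macrophages was 0.56 without the first Veh library and -0.73 without the second. With CC in normal-labelled macrophages, 2 ER folding genes fell, and 1 did under the replicate block, with the 4 libraries of the comparison alone and with DESeq2. ER folding genes that rose went from 1 to 2 at an adjusted p under 0.1. In steatotic-labelled macrophages the 3 falls of ATF4 arm genes became 1 under the replicate block. For the difference of responses, the 1 ATF4 arm gene with a more positive change became 0 under the replicate block and 2 with DESeq2, Cebpb being the gene gained, and the 490 genes called became 777 at an adjusted p under 0.1. The cause of these shifts was not tested.

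With each library left out in turn, the genes called with CC in normal-labelled macrophages ranged from 1020 to 1761 (1795 with all libraries), ATF4 arm genes that rose from 4 to 10 and that fell from 0 to 1, and ER folding genes that rose from 1 to 2 and that fell from 0 to 2. In steatotic-labelled macrophages, ATF4 arm genes that fell ranged from 0 to 3 and ER folding genes that rose from 1 to 3. Between livers with CC, ER folding genes higher by label ranged from 0 to 1. For the difference of responses, the genes called ranged from 298 to 427, ATF4 arm genes with a more positive change from 0 to 2 and ER folding genes from 0 to 1.

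The replicate numbers give only 2 libraries a group. Over all genes tested, deviations of libraries with the same number were nearly uncorrelated (correlations of -0.005 to 0.071 between groups). Counting error also lowers such a correlation, so it cannot decide whether equal numbers mark a shared day or animal. With the replicate block, 1545 genes were called with CC in normal-labelled macrophages. Each group had 2 libraries, and depth was lowest for Phgdh and Ddit4, the members under 2 CPM in at least 1 library.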
